A study of Mus musculus with 217 samples.

Results

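The heart endothelium was examined 48 hr after a systemic dose of lipopolysaccharide (LPS), the cell wall component of Gram-negative bacteria, in the libraries labelled heart, 48 hr against those labelled heart, 0 hr. The counts of all sequencing runs of a library were summed and libraries with under 3% of their reads on genes were left out, which kept 6 of the 7 libraries at 48 hr and 5 of the 6 at 0 hr, among 28 of 34 heart libraries and 98 libraries of the series. All mice were adult C57BL/6J carrying Cdh5CreERT2/+; Rpl22HA/+, so that the promoter of Cdh5, the gene of VE-cadherin, drives a tamoxifen-activated Cre in endothelial cells (ECs) and the ribosomal protein Rpl22 is HA-tagged from then on in the cells that had the Cre. Every mouse, controls included, had been gavaged with 5 mg of tamoxifen on alternate days, 4 doses in all, when 4 to 6 weeks old. The 48 hr mice had 10 mg per kg LPS by intraperitoneal injection, and the 0 hr mice are labelled control. Tagged ribosomes were pulled down from whole heart lysate with an anti-HA antibody, so the measured RNA is that bound to ribosomes of the tagged cells plus whatever the pull-down carried over.

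LPS in the blood is sensed through Toll-like receptor 4 with its partners Cd14, Ly96 (MD-2) and the LPS-binding protein Lbp, and the signal reaches NF-kappaB, a family of transcription factors held back in resting cells by inhibitor proteins. Activated ECs display selectins, Icam1 and Vcam1 to catch passing leukocytes and release chemokines that call them in, and cytokines of the interleukin-6 family then raise acute-phase genes through Stat3. In the heart, capillary ECs also carry fatty acids from the blood to the muscle with Cd36, Fabp4, Gpihbp1 and Lpl.

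The kept libraries held 9792631 to 26666744 counts on genes at 0 hr and 8161033 to 31293546 at 48 hr, with 60.52% to 65.74% and 61.62% to 68.13% of reads on genes. Levels are CPM, counts per 1000000 counts of the library, with library sizes corrected by TMM (edgeR's trimmed mean of M-values). The deposited file names fall into 4 patterns, called library series here, which is what the names show and not a labelled batch, and library series 3 held the 6 libraries left out. The 0 hr replicates 1 and 2 and the 48 hr replicates 3 and 4 were in library series 1, the 0 hr replicates 3, 4 and 5 and the 48 hr replicates 1 and 2 in library series 2, and the 48 hr replicates 6 and 7 in library series 4, which held no 0 hr library. A pair of libraries of other times stood apart from the rest of their label. The acute-phase gene Lcn2 stood at 51.4 CPM in the library labelled 6 hr replicate 5 and at 13.2 CPM in the library labelled 72 hr replicate 1. The 0 hr libraries held 8.11 to 21.0 CPM, while the median was 5413 CPM at 6 hr and 805 CPM at 72 hr. The former library was not at the 0 hr level throughout. Its median over interferon-stimulated genes was 0.767 (log2 CPM against the 0 hr mean), with the 0 hr libraries at −0.124 to 0.0705. That over core endothelial markers was 0.016, within the 0 hr range of −0.0865 to 0.0841. Both libraries enter the comparison with 0 hr through the shared spread and the library series term only, while 72 hr replicate 1 is also part of the 72 hr mean, and counts without them are given beside the main counts. The labels do not say that every library of a group came from its own mouse, so p-values measure the spread between these libraries. Sex is not labelled, and Xist, the RNA of the silenced X chromosome, was over 1 CPM in 1 of the 5 libraries at 0 hr and in 0 of the 6 at 48 hr.

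The label was checked against endothelial markers. Cdh5 was at 1547, 1360, 1767, 1921 and 1712 CPM in the 0 hr replicates 1 to 5 and 1252 to 1952 CPM at 48 hr, with overlapping groups. Pecam1 (CD31) was between 1859 and 2441 CPM at 0 hr and between 1757 and 3948 CPM at 48 hr, and the VEGF receptor Kdr between 1667 and 2276 CPM and between 1100 and 1686 CPM. All 32 core endothelial markers were detected, their summed level was 22640 to 25880 CPM at 0 hr and 19590 to 27530 CPM at 48 hr, and 0 of them passed the test (median log2 fold change 0.00). The 26 cardiomyocyte markers were also present, at 7274 to 13370 CPM in sum at 0 hr and 8412 to 15630 CPM at 48 hr, so transcripts of heart muscle were part of every library.

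Promoter sequence is shown for 3 genes whose groups of genes are described below, as the 250 bases before the start site in RefSeq on GRCm38.p6, written 5′ to 3′ on the strand of the gene. In Cxcl1, a neutrophil-attracting chemokine (chr5:90890995-90891244, plus strand), and in Csf1, the growth factor of macrophages (chr3:107760470-107760719, minus strand), both higher at 48 hr, capitals mark a match to the NF-kappaB motif, GGGA and TTCC with any 2 bases between them. In Cdc20, an activator of mitotic exit (chr4:118437344-118437593, minus strand), which was lower, capitals mark the matches to CCAAT and to TTTGAA, the core of the cell cycle homology region (CHR).
Cxcl1: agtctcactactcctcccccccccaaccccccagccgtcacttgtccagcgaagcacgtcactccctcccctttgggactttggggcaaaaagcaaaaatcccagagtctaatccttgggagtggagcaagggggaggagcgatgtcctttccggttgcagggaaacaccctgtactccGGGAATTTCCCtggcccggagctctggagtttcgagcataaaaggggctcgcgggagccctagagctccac
Csf1: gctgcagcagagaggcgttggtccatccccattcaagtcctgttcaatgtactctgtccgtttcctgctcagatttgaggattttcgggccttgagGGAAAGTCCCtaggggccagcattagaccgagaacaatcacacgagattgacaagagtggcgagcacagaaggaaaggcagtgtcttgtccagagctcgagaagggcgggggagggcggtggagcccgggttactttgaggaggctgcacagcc
Cdc20: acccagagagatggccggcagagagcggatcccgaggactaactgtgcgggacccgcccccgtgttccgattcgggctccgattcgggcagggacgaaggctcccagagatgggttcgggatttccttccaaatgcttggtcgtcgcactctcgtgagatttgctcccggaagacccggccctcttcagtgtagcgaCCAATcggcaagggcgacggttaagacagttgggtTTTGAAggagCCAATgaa
All motifs were searched on both strands. The NF-kappaB motif was found in 1.47% of all RefSeq promoters of this length and in 1.79% of tested genes with a matched promoter. Among genes with a matched promoter it was in 14 of the 373 higher at 48 hr (3.75%) and in 2 of the 130 lower (1.54%). It was in 3 of 17 chemokine genes, 2 of 21 genes of the LPS receptor complex and NF-kappaB list and 0 of 15 acute-phase genes. CCAAT was found in 37.4% and TTTGAA in 17.9% of all promoters, and in 42.3% and 14.3% of tested genes with a matched promoter. Each was found in 23 of 32 genes of the G2 and M phases (71.9%). A match gives the presence of these letters in the window and nothing of the factor.

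Of 16024 genes tested with edgeR's quasi-likelihood test, with all 28 kept heart libraries sharing the spread and library series as a covariate, 493 (3.08%) were higher and 178 (1.11%) lower at 48 hr at an adjusted p under 0.05. The higher genes had a median log2 fold change of 2.30, and 84 of them exceeded a log2 fold change of 4. The lower genes had a median of −1.37, and 0 of them fell by that much. These sizes are not measured alike, because genes near 0 CPM at 0 hr could pass the count filter through later times. Such genes can rise far, while a fall is limited by the 0 hr level. The median over all genes was −0.01. Each list count below is to be read against 3.08% higher and 1.11% lower among all genes. In the 493 higher genes the 2 groups of libraries did not overlap in 352, against 648 of all 16024 genes (4.04%), and in the 178 lower genes they did not overlap in 147, against 604 (3.77%). Direction was the same within library series 1 and within library series 2 in 492 of the higher and all 178 of the lower genes. The genes were called on the same libraries, so neither the shared direction nor the lack of overlap is a test.

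The number of calls changed with the libraries in the fit. Without the 2 libraries that stood apart from their labels, 934 genes were higher and 533 lower, and all 671 genes called above were among them. Leaving out 1 library at a time gave 249 to 718 higher and 45 to 327 lower genes. The count of higher genes fell past 1.5 times without 0 hr replicate 1 (253), 0 hr replicate 2 (249), 0 hr replicate 3 (316) or 48 hr replicate 3 (315). That of lower genes did so without 0 hr replicates 1 to 5 (52, 45, 105, 114 and 82) and without 48 hr replicate 3 (58), 6 (85) or 7 (96), and it rose to 327 without 48 hr replicate 2. Without library series 4, 209 genes were higher and 18 lower.

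**Figure D1:**
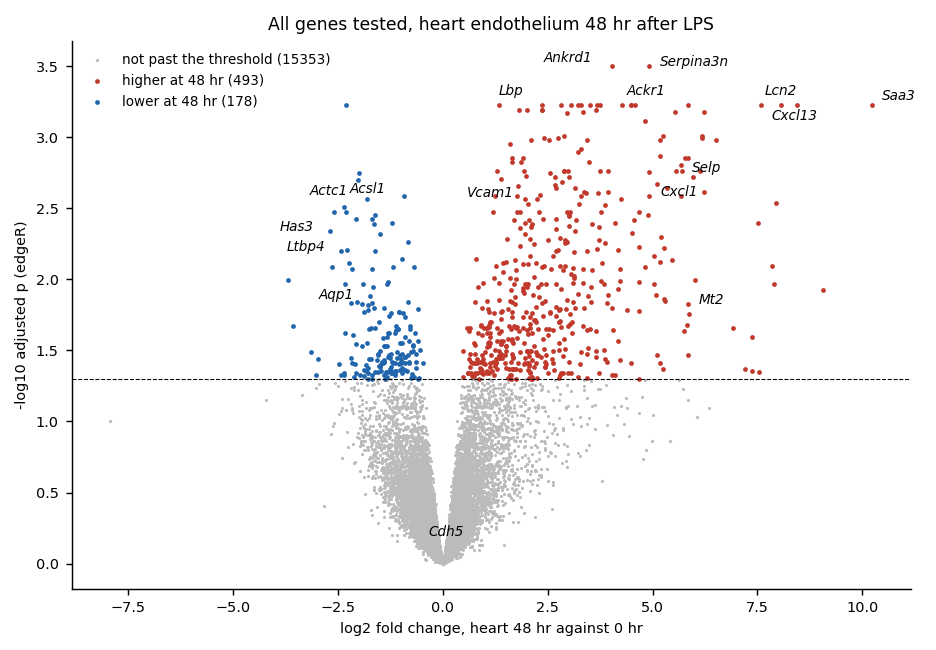
Each of the 16024 genes tested by its log2 fold change at 48 hr against 0 hr (x axis) and the −log10 of its edgeR adjusted p (y axis, dashed line at 0.05); red points are the 493 higher genes and blue points the 178 lower ones. Lcn2 lies at 8.05 among the higher genes and Ltbp4 at −2.43 among the lower ones, and 0 of the lower genes fell by more than 4.

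Acute-phase and LPS-induced secreted proteins, many of which the liver makes in bulk during infection and other tissues can also express, rose in most cases. Of 20 measured members, 15 rose and 0 fell, against 3.08% higher and 1.11% lower among all genes, with a median log2 fold change of 4.07 against −0.01 over all genes (17 rose and 0 fell without the 2 libraries above). Lcn2, lipocalin 2, binds the siderophores with which bacteria take up iron. It stood at 18.4, 8.11, 21.0, 16.5 and 14.9 CPM in the 0 hr replicates 1 to 5 and at 960.2, 677, 18820, 3313, 19310 and 15410 CPM in the 48 hr replicates 1, 2, 3, 4, 6 and 7. No library at 48 hr came near the 0 hr range, but replicates 3, 6 and 7 lay far above replicates 1, 2 and 4. The log2 fold change was 8.05 (SE 1.21, edgeR adjusted p = 0.000598), and the difference of mean log2 CPM was 9.32 within library series 1 and 5.54 within library series 2. It was past the threshold under all 23 alternative fits (adjusted p 2.54e-21 to 0.00669).

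The serum amyloid gene Saa3 was at 0.188, 0.176, 0.382, 0.174 and 0.395 CPM at 0 hr and at 166 CPM at the lowest, 274 CPM at the median and 639.9 CPM at the highest at 48 hr. Groups were far apart, with a log2 fold change of 10.24 (SE 1.44, edgeR adjusted p = 0.000598), although limma-voom put its adjusted p at 0.0540. The 0 hr libraries held few counts of Saa3, so the size of this fold is uncertain. Serpina3n, a secreted inhibitor of serine proteases, stood at 7.33, 5.02, 7.07, 9.25 and 6.97 CPM at 0 hr and 87.9 CPM at the lowest, 428 CPM at the median and 1041 CPM at the highest at 48 hr, a log2 fold change of 4.92 (SE 0.63, edgeR adjusted p = 0.000314). Its relatives Serpina3g and Serpina3f rose by 5.17 (SE 0.86, edgeR adjusted p = 0.00105) and 6.12 (SE 1.08, edgeR adjusted p = 0.00172) on the log2 scale, the latter lost in limma-voom (adjusted p = 0.0910). Members of the Serpina3 and Saa families are close copies of each other, so reads may be split between them unevenly, and reads aligned to several places were not counted on any gene. Lrg1, a glycoprotein that modifies TGF-beta signalling in ECs, was between 22.2 and 61.5 CPM at 0 hr and between 92.4 and 538 CPM at 48 hr (log2 fold change 3.00, SE 0.54, edgeR adjusted p = 0.00190). Lbp, which hands LPS to Cd14, was between 23.8 and 34.6 CPM and then between 80.7 and 247 CPM (log2 fold change 2.36, SE 0.34, edgeR adjusted p = 0.000598), and neither gene overlapped between groups. The other members that rose were Saa1, Saa2, Serpina3h, Hp, Itih4, Ch25h, Cp and Lox. The count of 15 thus includes Ch25h, an enzyme of the cholesterol list, and Lox, also a fibroblast marker, which are not acute-phase proteins.

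**Figure D2:**
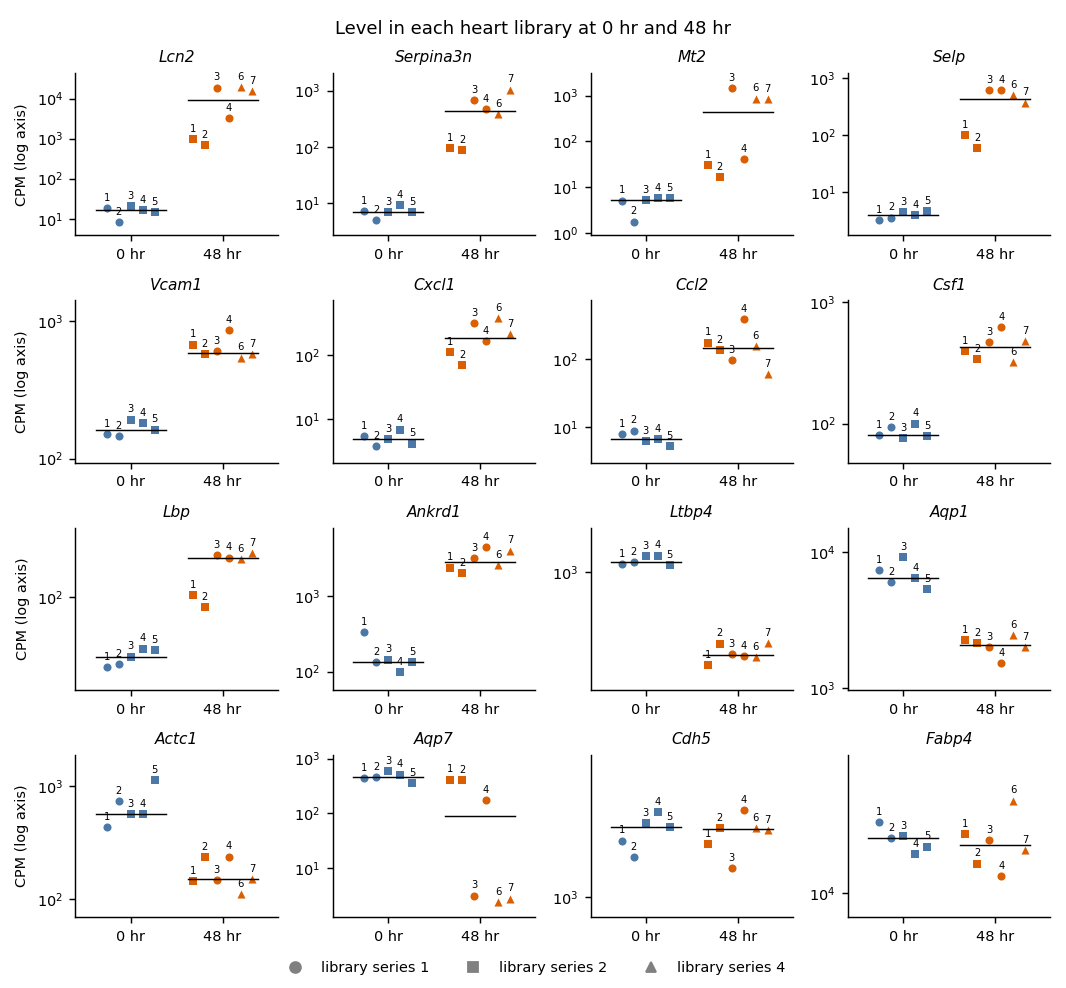
Level of 16 genes in each of the 5 heart libraries at 0 hr (blue) and 6 at 48 hr (orange), as CPM on a log axis; numbers are replicates, symbols library series and bars medians. Lcn2, Selp, Cxcl1 and Ankrd1 do not overlap between times, Aqp7 is at 2.34 to 3.07 CPM in 48 hr replicates 3, 6 and 7 but within the 0 hr range in replicates 1 and 2, and Cdh5 and Fabp4 overlap.

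Some molecules that hold leukocytes on the vessel wall were higher. Of 16 measured, 6 rose (among them Selp, Sele, Icam1, Madcam1 and Vcam1) and 1 fell (Jam3), against 3.08% and 1.11% among all genes, and the median log2 fold change was 0.43 (8 rose and 1 fell without the 2 libraries above, and 4 to 6 rose when 1 library at a time was left out). Selp (P-selectin, ENSMUSG00000026580.16, chromosome 1 from 164115264 to 164150026 on the plus strand, GRCm38), which starts the rolling of leukocytes along the vessel wall, was at 3.19, 3.52, 4.47, 3.93 and 4.64 CPM at 0 hr and 98.3, 59.6, 609, 626, 499.6 and 371 CPM at 48 hr in replicate order. All 6 libraries at 48 hr lay above all 5 at 0 hr, replicates 1 and 2 of library series 2 lowest. Its log2 fold change was 5.69 (SE 0.98, edgeR adjusted p = 0.00156), and the difference of mean log2 CPM was 7.48 within library series 1 and 4.11 within library series 2. Sele (E-selectin) was between 0.939 and 2.05 CPM at 0 hr and between 24.6 and 131 CPM at 48 hr (log2 fold change 5.12, SE 0.93, edgeR adjusted p = 0.00213).

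Vcam1, which holds monocytes and lymphocytes on the vessel wall, was the most even of these genes at 48 hr. It stood at 151, 146, 192, 182 and 163 CPM at 0 hr and 677, 577, 604, 865, 545 and 575 CPM at 48 hr, and the log2 fold change was 2.04 (SE 0.38, edgeR adjusted p = 0.00296). Icam1, which binds leukocyte integrins, was between 96.9 and 138 CPM at 0 hr and between 434 and 1705 CPM at 48 hr (log2 fold change 2.96, SE 0.57, edgeR adjusted p = 0.00335). Neither overlapped, and Selp, Sele, Vcam1 and Icam1 were past the threshold under all 23 alternatives. Selp, Vcam1, Icam1 and Jam3 each share exon bases with an antisense gene in GENCODE M21, and the strand setting of the counting is not given. Reads of those partners therefore cannot be told apart from theirs. Jam3, a junctional adhesion molecule, was between 99.1 and 134 CPM at 0 hr and between 27.6 and 78.9 CPM at 48 hr (log2 fold change −0.99, SE 0.27, edgeR adjusted p = 0.0361), a call that was lost without 0 hr replicates 1, 2, 3, 4 or 5 or 48 hr replicates 3, 4 or 6 (edgeR adjusted p 0.0511 to 0.113).

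Chemokines, which draw leukocytes towards the vessel, rose in 12 of 24 measured genes and fell in 0, with a median log2 fold change of 2.72 (17 rose and 0 fell without the 2 libraries above). Limma-voom called 3 of them, and leaving out 1 library at a time gave 9 to 12. Cxcl1 stood at 5.45, 3.79, 4.89, 6.85 and 4.17 CPM in the 0 hr replicates 1 to 5 and 108, 68.8, 313, 162, 369 and 208 CPM in the 48 hr replicates 1, 2, 3, 4, 6 and 7. The groups did not overlap, and the log2 fold change was 4.93 (SE 0.92, edgeR adjusted p = 0.00261), with an adjusted p over 0.05 in limma-voom (adjusted p = 0.0655). Ccl2, which attracts monocytes, was at 7.89, 8.90, 6.27, 6.61 and 5.32 CPM at 0 hr and 176, 137, 98.1, 393, 154 and 60.4 CPM at 48 hr. Replicate 4 was highest and replicate 7 lowest, all above the 0 hr libraries, for a log2 fold change of 4.57 (SE 0.90, edgeR adjusted p = 0.00385) that missed the threshold in limma-voom (adjusted p = 0.0723).

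Ackr1, a decoy receptor of venular ECs that binds chemokines without signalling, went from hardly detected to moderate levels. It was at 0.564, 0.793, 0.840, 0.452 and 1.006 CPM at 0 hr and 38.6, 22.4, 69.6, 85.3, 50.0 and 43.9 CPM at 48 hr, in every library at 48 hr above all of 0 hr (log2 fold change 5.84, SE 0.85, edgeR adjusted p = 0.000598). Cxcl13, a chemokine for B cells, was at 0 in 3 of the 5 libraries at 0 hr and at most 0.267 CPM in the others, and stood at 16.7, 33.7, 6.40, 24.2, 1.41 and 4.91 CPM at 48 hr (edgeR adjusted p = 0.000598), and its fold is not given because the 0 hr libraries held so few counts. Cxcl5, Cxcl2, Ccl7, Ccl3, Ccl22, Ccl12, Ccl9 and Cx3cl1 also rose. The interferon-induced chemokines did not pass. Cxcl9 was between 71.9 and 111 CPM at 0 hr and at 129.7, 215, 869.9, 111, 714 and 842 CPM at 48 hr (log2 fold change 2.03, SE 0.67, edgeR adjusted p = 0.0821), and Cxcl10 was between 7.07 and 20.5 CPM and then between 31.8 and 104 CPM (log2 fold change 1.72, SE 0.72, edgeR adjusted p = 0.176).

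Cytokines and their receptors rose in 13 of 31 measured genes and fell in 0, with a median log2 fold change of 0.99 (16 rose and 0 fell without the 2 libraries above). With 1 library at a time left out, the number was 3 to 14, past 1.5 times with 4 without 0 hr replicate 1, 3 without 0 hr replicate 2, 8 without 0 hr replicate 5 and 7 without 48 hr replicate 3, and without library series 4 it was 2. Csf1 was at 80.4, 93.5, 75.7, 99.7 and 78.8 CPM at 0 hr and 392.4, 337, 464, 615, 320.2 and 473 CPM at 48 hr, a narrow spread with no overlap (log2 fold change 2.38, SE 0.46, edgeR adjusted p = 0.00379). The granulocyte growth factor Csf3 varied widely. It was at or below 0.176 CPM in every 0 hr library and at 2.54, 0.280, 478, 34.4, 944 and 232 CPM at 48 hr, with replicate 2 lowest and replicates 3, 6 and 7 highest. It passed the test (edgeR adjusted p = 0.0120) but not without 0 hr replicates 1 or 2 (edgeR adjusted p 0.0514 to 0.0532), and was also lost in limma-voom (adjusted p = 0.487) and without library series 4 (adjusted p = 0.0813). Il6, the main inducer of acute-phase genes, was at or below 0.243 CPM at 0 hr and at 1.58, 0.770, 22.5, 3.68, 64.8 and 9.02 CPM at 48 hr (edgeR adjusted p = 0.0343), a call lost without 0 hr replicates 1, 2, 3, 4 or 5 or 48 hr replicates 3 or 6 (edgeR adjusted p 0.0589 to 0.112). Tnf was between 0.617 and 1.39 CPM at 0 hr and between 2.11 and 9.42 CPM at 48 hr (log2 fold change 2.88, SE 0.62, edgeR adjusted p = 0.00859), lost in limma-voom (adjusted p = 0.0789).

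Of 29 measured genes of the LPS receptor complex and of NF-kappaB and its inhibitors, 9 rose and 0 fell (18 rose and 0 fell without the 2 libraries above), with a median of 1.13. Leaving out 1 library at a time gave 5 to 14, past 1.5 times with 5 without 0 hr replicate 1, 5 without 0 hr replicate 2 and 14 without 48 hr replicate 2. Those that rose were inhibitors and modulators of the pathway (Nfkbiz, Zc3h12a, Tnfaip3, Tnip1, Irak3 and Nfkbie), the kinase Irak2 and the LPS-binding Cd14 and Lbp. Nfkbiz, an atypical I-kappaB protein of the nucleus, stood at 3.95, 3.88, 3.36, 2.96 and 3.52 CPM at 0 hr and 66.1, 50.4, 356, 106, 362 and 392.1 CPM at 48 hr. All 48 hr libraries were over 10 times the 0 hr median, and the log2 fold change was 5.25 (SE 0.85, edgeR adjusted p = 0.000983), with a difference of mean log2 CPM of 5.60 within library series 1 and 4.10 within library series 2. Zc3h12a, a ribonuclease that destroys cytokine mRNAs, was between 4.69 and 6.76 CPM at 0 hr and between 18.5 and 147 CPM at 48 hr (log2 fold change 3.01, SE 0.58, edgeR adjusted p = 0.00357). Cd14 was between 2.14 and 3.38 CPM and then between 10.9 and 32.1 CPM (log2 fold change 2.79, SE 0.56, edgeR adjusted p = 0.00511), lost in limma-voom (adjusted p = 0.0746). Tlr4 itself was between 17.9 and 31.5 CPM and between 22.4 and 38.6 CPM, with overlapping groups (log2 fold change 0.39, SE 0.23, edgeR adjusted p = 0.331).

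The JAK-STAT3 list, through which interleukin-6 family cytokines signal, had 6 of 19 genes higher and 0 lower with a median of 0.97 (10 rose and 0 fell without the 2 libraries above). Omitting single libraries gave 1 to 9, past 1.5 times with 1 without 0 hr replicate 1, 1 without 0 hr replicate 2, 2 without 0 hr replicate 5 and 1 without 48 hr replicate 3, and without library series 4 the number was 0. Cebpd, a transcription factor of acute-phase genes, was at 37.4, 23.1, 58.4, 45.1 and 30.1 CPM at 0 hr and 173, 93.7, 771, 126, 654 and 818 CPM at 48 hr (log2 fold change 3.06, SE 0.67, edgeR adjusted p = 0.00917), lost in the fit without library series 4 (adjusted p = 0.0669). The feedback inhibitor Socs3 was between 13.0 and 19.6 CPM at 0 hr and between 27.2 and 269 CPM at 48 hr (log2 fold change 2.26, SE 0.61, edgeR adjusted p = 0.0343), a call lost without 0 hr replicates 1, 2, 3, 4 or 5 or 48 hr replicates 3 or 6 (edgeR adjusted p 0.0510 to 0.136). Stat3 was between 169 and 213 CPM and between 207 and 709 CPM and did not pass (log2 fold change 0.97, SE 0.34, edgeR adjusted p = 0.108).

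Complement, the plasma cascade that marks and lyses microbes, had 9 of 21 genes higher and 0 lower with a median of 1.35 (13 rose and 0 fell without the 2 libraries above, and 6 to 11 when 1 library at a time was left out). C3, its central component, was at 22.3, 31.7, 36.9, 32.8 and 31.2 CPM at 0 hr and 181, 216, 135, 266, 54.3 and 226 CPM at 48 hr, lowest in replicate 6 but above the 0 hr range throughout (log2 fold change 2.68, SE 0.48, edgeR adjusted p = 0.00189). C1ra, a protease of the first step, was between 6.70 and 12.2 CPM and then between 40.0 and 219 CPM (log2 fold change 3.24, SE 0.61, edgeR adjusted p = 0.00296), and Serping1, the inhibitor of that step, between 22.6 and 35.3 CPM and then between 65.8 and 262 CPM (log2 fold change 2.10, SE 0.42, edgeR adjusted p = 0.00428). All 3 were past the threshold in all 23 alternatives. The other genes that rose were Cfb, C1s1, Cfp, C5ar1, C1qb and Clu, of which C1qb is also on the monocyte and macrophage list. The rise of the list was uneven. Its median against the 0 hr mean was 1.37, 1.67, 0.37, 1.99, 0.14 and 0.57 (log2 CPM) in the 48 hr replicates 1, 2, 3, 4, 6 and 7.

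Matrix proteases and their inhibitors rose in 8 of 24 genes and fell in 0, with a median of 0.52. Mmp3 was between 0.879 and 1.44 CPM at 0 hr and between 6.88 and 52.8 CPM at 48 hr (log2 fold change 3.94, SE 0.69, edgeR adjusted p = 0.00172), and the inhibitor Timp1 between 2.03 and 3.49 CPM and then between 10.7 and 55.1 CPM (log2 fold change 3.11, SE 0.67, edgeR adjusted p = 0.00827), the latter lost in limma-voom (adjusted p = 0.145) and without library series 4 (adjusted p = 0.0513). Mmp8 and Mmp9, also on the neutrophil list, rose as well, Mmp9 to between 0.896 and 4.80 CPM. Metallothioneins, which bind zinc and copper, varied widely between the 48 hr libraries. Mt2 stood at 5.07, 1.76, 5.23, 5.81 and 5.68 CPM at 0 hr and 30.6, 16.3, 1472, 40.3, 865 and 855 CPM at 48 hr, with replicates 3, 6 and 7 far above replicates 1, 2 and 4 and all of them above the 0 hr range. The log2 fold change was 5.84 (SE 1.37, edgeR adjusted p = 0.0149), the difference of mean log2 CPM was 6.30 within library series 1 and 1.99 within library series 2, and the call was lost without 0 hr replicates 1 or 2 or 48 hr replicate 3 (edgeR adjusted p 0.0610 to 0.0644). Mt1, a close paralog, was between 13.0 and 28.9 CPM at 0 hr and at 47.2, 30.2, 1390, 55.5, 706 and 802 CPM at 48 hr (log2 fold change 4.18, SE 1.08, edgeR adjusted p = 0.0273), also lost without 0 hr replicates 1, 2, 3 or 4 or 48 hr replicate 3 (edgeR adjusted p 0.0511 to 0.150). Of 4 genes on the metallothionein list 3 rose and 0 fell, with 0 calls in limma-voom and 0 without library series 4. The number was 0 to 3, past 1.5 times with 0 without 0 hr replicate 1, 0 without 0 hr replicate 2, 1 without 0 hr replicate 3 and 0 without 48 hr replicate 3, when 1 library at a time was left out.

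In coagulation and fibrinolysis, 4 of 21 genes rose and 0 fell, and leaving out 1 library at a time gave 1 to 4, past 1.5 times with 1 without 0 hr replicate 1, 1 without 0 hr replicate 2, 2 without 0 hr replicate 4, 1 without 0 hr replicate 5, 2 without 48 hr replicate 3 and 2 without 48 hr replicate 6. Plaur, the urokinase receptor, was between 19.5 and 29.1 CPM at 0 hr and between 36.1 and 755 CPM at 48 hr (log2 fold change 2.41, SE 0.63, edgeR adjusted p = 0.0307), lost without 0 hr replicates 1, 2, 3, 4 or 5 or 48 hr replicates 3 or 6 (edgeR adjusted p 0.0506 to 0.107). In glycolysis 1 of 25 genes rose and 0 fell, against 3.08% higher among all genes. It was Pfkfb3, whose enzyme drives glycolysis in ECs, at 72.2, 67.9, 84.4, 71.3 and 66.2 CPM at 0 hr and 169.8, 189, 867, 168, 658 and 1027 CPM at 48 hr (log2 fold change 2.396, SE 0.58, edgeR adjusted p = 0.0180), lost without 0 hr replicates 1 or 2 or 48 hr replicate 3 (edgeR adjusted p 0.0624 to 0.0760). Hexokinase 2 (Hk2) was between 23.9 and 40.4 CPM and between 21.6 and 32.2 CPM (log2 fold change −0.42, SE 0.29, edgeR adjusted p = 0.425). In respiratory complexes I to V (75 genes), the citric acid cycle (19) and mitochondrial fatty acid oxidation (25), 0 genes passed with edgeR in either direction.

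Other genes that rose lay outside the groups above. Itgb3, the beta-3 integrin, was at 14.8, 14.9, 14.8, 19.9 and 14.7 CPM at 0 hr and 110.2, 79.7, 200.1, 354, 437 and 261 CPM at 48 hr (log2 fold change 3.45, SE 0.72, edgeR adjusted p = 0.00635), Susd2 between 2.64 and 3.99 CPM and then between 23.9 and 173 CPM (log2 fold change 4.49, SE 0.67, edgeR adjusted p = 0.000598), and the small GTPase Rnd1 between 24.2 and 33.0 CPM and then between 86.1 and 648 CPM (log2 fold change 3.15, SE 0.74, edgeR adjusted p = 0.0158), the last lost without 0 hr replicates 1 or 2 (edgeR adjusted p 0.0569 to 0.0578). Sdc4, a cell surface proteoglycan, was between 12.3 and 19.1 CPM and then between 60.9 and 314 CPM (log2 fold change 3.30, SE 0.61, edgeR adjusted p = 0.00261). Tgfbr2, the type II TGF-beta receptor, was at 209, 201, 247, 297 and 264 CPM at 0 hr and 497, 497, 1021, 612, 731 and 957 CPM at 48 hr (log2 fold change 1.40, SE 0.25, edgeR adjusted p = 0.00196). Slco2a1, which carries prostaglandins into cells, was between 18.5 and 55.2 CPM and then between 67.9 and 302 CPM (log2 fold change 1.83, SE 0.36, edgeR adjusted p = 0.00438). Of the 671 called genes, 365 higher and 158 lower ones belonged to no list.

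**Figure D3:**
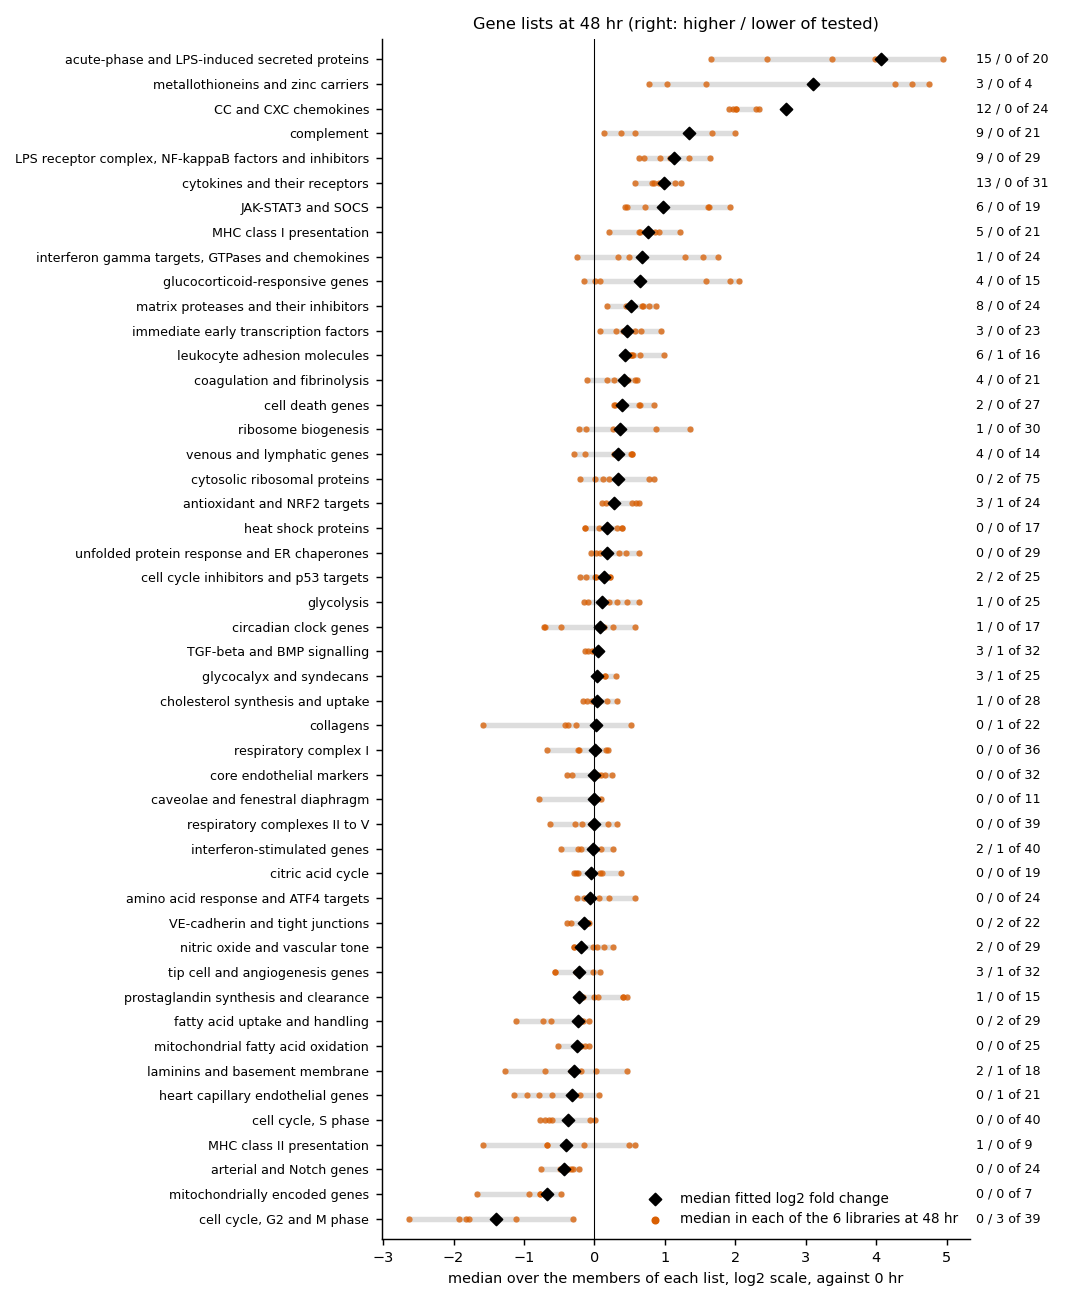
Median over the members of each gene list of the fitted log2 fold change (diamonds) and of the difference from 0 hr in each of the 6 libraries at 48 hr (orange points, grey bar from lowest to highest), with the number of genes higher, lower and tested at the right. Acute-phase genes lie at 4.07 and chemokines at 2.72, the G2 and M phase list at −1.39, and the points spread widely for metallothioneins.

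Interferon-stimulated genes, the antiviral program that type I interferon switches on, had calls in both directions. Of 40, 2 rose (Irf7 and Lgals3bp) and 1 fell (Samd9l), against 3.08% and 1.11% among all genes, with a median of −0.02 and per-library medians of −0.03, 0.10, −0.23, −0.47, 0.27 and −0.19 in the 48 hr replicates 1, 2, 3, 4, 6 and 7. All 3 calls were lost in 7 or 8 of the 11 fits that left out 1 library. Irf7 was between 42.6 and 84.2 CPM at 0 hr and between 68.0 and 255 CPM at 48 hr (log2 fold change 1.33, SE 0.36, edgeR adjusted p = 0.0348), lost without 0 hr replicates 1, 2, 3, 4 or 5 or 48 hr replicates 3 or 7 (edgeR adjusted p 0.0544 to 0.159). Of 24 interferon gamma targets, 1 rose, against 3.08% among all genes, and the median was 0.67. It was Irf8, at 20.3, 10.6, 13.1, 8.00 and 10.1 CPM at 0 hr and 15.6, 20.7, 168, 20.6, 203 and 171 CPM at 48 hr (log2 fold change 2.23, SE 0.59, edgeR adjusted p = 0.0325), lost without 0 hr replicates 1, 2, 3, 4 or 5 or 48 hr replicates 3 or 6 (edgeR adjusted p 0.0515 to 0.182).

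MHC class I genes, which present peptides to T cells, rose in 5 of 21 and fell in 0 with a median of 0.76 (12 rose and 0 fell without the 2 libraries above). Omitting single libraries gave 0 to 6, past 1.5 times with 1 without 0 hr replicate 2, 2 without 0 hr replicate 3, 2 without 0 hr replicate 4, 2 without 0 hr replicate 5, 0 without 48 hr replicate 3, 3 without 48 hr replicate 6 and 3 without 48 hr replicate 7. H2-Q4 was at 455, 288, 393, 281 and 275 CPM at 0 hr and 863, 761, 1585, 592, 1635 and 1924 CPM at 48 hr (log2 fold change 1.65, SE 0.39, edgeR adjusted p = 0.0170), lost without 0 hr replicate 2 or 48 hr replicate 3 (edgeR adjusted p 0.0589 to 0.0676). H2-T23, the ligand of an NK cell receptor, was between 205 and 303 CPM and then between 418 and 898 CPM (log2 fold change 1.09, SE 0.26, edgeR adjusted p = 0.0161), lost without 48 hr replicate 3 (edgeR adjusted p = 0.0519). H2 genes are close copies of each other, so the share of reads on each is uncertain.

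Genes of the G2 and M phases leaned lower. Of 39, 3 fell and 0 rose, against 1.11% lower among all genes, with a median of −1.39, and without the 2 libraries above 0 rose and 22 fell, so the number of calls depended on those libraries. Leaving out 1 library at a time gave 0 to 12, past 1.5 times with 0 without 0 hr replicate 1, 1 without 0 hr replicate 2, 5 without 0 hr replicate 3, 1 without 0 hr replicate 5, 12 without 48 hr replicate 2, 1 without 48 hr replicate 3 and 1 without 48 hr replicate 4. Cenpf, a kinetochore protein, was at 31.9, 21.7, 14.4, 37.0 and 34.7 CPM at 0 hr and 5.30, 15.7, 2.56, 6.17, 3.72 and 5.22 CPM at 48 hr, with replicate 2 at 48 hr overlapping the 0 hr range (log2 fold change −2.03, SE 0.47, edgeR adjusted p = 0.0145), and was lost without 0 hr replicate 1 (edgeR adjusted p = 0.0592). Cdc20, with the promoter shown above, was at 34.4, 18.8, 12.9, 24.4 and 26.3 CPM at 0 hr and 5.66, 11.2, 9.61, 8.23, 9.51 and 8.52 CPM at 48 hr (log2 fold change −1.39, SE 0.40, edgeR adjusted p = 0.0468), lost without 0 hr replicates 1, 2, 4 or 5 or 48 hr replicates 1, 3, 4, 6 or 7 (edgeR adjusted p 0.0651 to 0.189). It shares exon bases with Elovl1 on the opposite strand. Cenpa was between 16.6 and 28.2 CPM and then between 4.06 and 16.0 CPM (log2 fold change −1.32, SE 0.34, edgeR adjusted p = 0.0256), lost without 0 hr replicates 1, 2 or 5 or 48 hr replicates 3 or 4 (edgeR adjusted p 0.0507 to 0.0983). The proliferation marker Mki67 was at 94.8, 60.7, 32.5, 85.5 and 82.8 CPM at 0 hr and 15.2, 51.8, 10.6, 17.3, 15.8 and 17.8 CPM at 48 hr and did not pass (log2 fold change −1.81, SE 0.54, edgeR adjusted p = 0.0551). S phase genes had 0 of 40 calls in either direction by edgeR, with a median of −0.37.

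Cdkn1a (p21), which stops the cell cycle, was at 412, 137, 131, 136 and 179 CPM at 0 hr and 249.9, 316, 2354, 521, 3143 and 2981 CPM at 48 hr. Replicate 1 of 0 hr lay above replicates 1 and 2 of 48 hr, and the log2 fold change of 2.12 (SE 0.61, edgeR adjusted p = 0.0484) was lost without 0 hr replicates 1, 2, 3, 4 or 5 or 48 hr replicates 3, 6 or 7 (edgeR adjusted p 0.0649 to 0.212).

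Of 21 heart capillary genes 0 rose and 1 fell, Aqp1, and of 29 genes of fatty acid handling 0 rose and 2 fell, Acsl1 and Dgat2, against 1.11% lower among all genes. The medians were −0.32 and −0.23, and the fatty acid list was at −1.12 to −0.08 in the single 48 hr libraries. Fabp4 was between 14590 and 19950 CPM at 0 hr and between 11780 and 24550 CPM at 48 hr (log2 fold change −0.08, SE 0.26, edgeR adjusted p = 0.887), Cd36 between 5551 and 9042 CPM and between 6056 and 8628 CPM (log2 fold change −0.06, SE 0.42, edgeR adjusted p = 0.952), and Gpihbp1 between 1283 and 1621 CPM and between 964 and 2471 CPM (log2 fold change 0.04, SE 0.37, edgeR adjusted p = 0.967). Aqp7, the glycerol channel, differed widely among the 48 hr libraries. It stood at 432, 454, 590.3, 508 and 359 CPM at 0 hr and at 411, 399, 3.07, 176, 2.34 and 2.72 CPM at 48 hr, so that replicates 3, 6 and 7 had a small fraction of the 0 hr level and replicates 1 and 2 lay within the 0 hr range. It did not pass (log2 fold change −1.41, SE 1.09, edgeR adjusted p = 0.473). Acsl1, which activates long-chain fatty acids, was at 68.2, 86.0, 88.7, 86.7 and 111 CPM at 0 hr and 47.9, 58.3, 36.8, 39.8, 37.2 and 34.1 CPM at 48 hr, with no overlap (log2 fold change −0.92, SE 0.17, edgeR adjusted p = 0.00261).

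Of 32 tip cell and angiogenesis genes, 3 rose (Pgf, Plaur and Mcam) and 1 fell (Vegfa), against 3.08% and 1.11% among all genes, and 28 did not pass. The growth factor Pgf was at 67.1, 28.7, 36.4, 19.3 and 24.5 CPM at 0 hr and 113, 105, 934, 193, 1765 and 1562 CPM at 48 hr (log2 fold change 3.34, SE 0.82, edgeR adjusted p = 0.0211), lost without 0 hr replicates 2 or 4 or 48 hr replicate 3 (edgeR adjusted p 0.05002 to 0.0790). Vegfa was between 26.3 and 48.7 CPM and then between 13.2 and 22.8 CPM, with no overlap and past the threshold in all 23 alternatives (log2 fold change −0.98, SE 0.21, edgeR adjusted p = 0.00722). Apln, a tip cell peptide, was at 487, 286, 263, 254 and 337 CPM at 0 hr and 119, 249, 25.0, 173, 99.4 and 66.1 CPM at 48 hr and did not pass (log2 fold change −1.38, SE 0.52, edgeR adjusted p = 0.133).

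The genes that fell furthest at higher levels included matrix and water channel genes. Ltbp4, which stores TGF-beta in the matrix, was at 1157, 1213, 1347, 1360 and 1136 CPM at 0 hr and 187, 275, 227, 218, 214 and 278 CPM at 48 hr. The 2 ranges lay far apart and the 48 hr libraries were close together, for a log2 fold change of −2.43 (SE 0.51, edgeR adjusted p = 0.00635) and a difference of mean log2 CPM of −2.41 within library series 1 and −2.49 within library series 2. The water channel Aqp1 was at 7317, 5976, 9194, 6430 and 5355 CPM at 0 hr and 2241, 2138, 2011, 1517, 2443 and 2008 CPM at 48 hr (log2 fold change −1.75, SE 0.40, edgeR adjusted p = 0.0130), with an adjusted p over 0.05 in the fit without library series 4 (adjusted p = 0.0732). The matrix protein Fbln2 was between 206 and 327 CPM and then between 42.1 and 108 CPM (log2 fold change −1.72, SE 0.47, edgeR adjusted p = 0.0361), lost without 0 hr replicates 1, 2, 3, 4 or 5 or 48 hr replicates 3 or 6 (edgeR adjusted p 0.0539 to 0.0949).

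Ccnd2 (cyclin D2), which drives entry into the cell cycle, was at 293, 427, 336, 332 and 286 CPM at 0 hr and 161, 239.7, 43.0, 191, 39.2 and 34.6 CPM at 48 hr (log2 fold change −1.40, SE 0.37, edgeR adjusted p = 0.0297), lost without 0 hr replicates 1 or 2 or 48 hr replicates 3, 6 or 7 (edgeR adjusted p 0.0554 to 0.119). Has3, a hyaluronan synthase of the glycocalyx, was at 5.82, 10.8, 21.0, 16.3 and 12.1 CPM at 0 hr and 1.58, 3.85, 0.769, 2.14, 0.586 and 0.729 CPM at 48 hr (log2 fold change −2.69, SE 0.54, edgeR adjusted p = 0.00454). On the glycocalyx list 3 of 25 genes rose (Sdc4, Has1 and Dcn) and 1 fell (Has3), against 3.08% and 1.11% among all genes. Has1, another hyaluronan synthase, thus went the other way. Its call was lost in 9 fits that left out 1 library (edgeR adjusted p 0.05655 to 0.118) and in limma-voom (adjusted p = 0.1505). Ctnnb1 (beta-catenin), which links VE-cadherin to the cytoskeleton, was between 1737 and 2105 CPM and then between 605 and 1344 CPM (log2 fold change −0.79, SE 0.22, edgeR adjusted p = 0.0384), lost without 0 hr replicates 1, 2, 3, 4 or 5 or 48 hr replicates 3, 6 or 7 (edgeR adjusted p 0.0548 to 0.101). Claudin-5 (Cldn5) was between 286 and 434 CPM and between 193 and 923 CPM (log2 fold change 0.02, SE 0.28, edgeR adjusted p = 0.979).

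Some markers of other cells also changed at 48 hr. In bulk libraries fewer cells of a type and less RNA per cell cannot be told apart. Of 9 tested neutrophil markers (15 listed), 8 rose, against 3.08% among all genes. Markers near 0 CPM at 0 hr could enter the test through the LPS times alone, so this count is partly set by the count filter. The summed level of all 15 was 1.22 to 2.03 CPM at 0 hr and 55.4, 44.9, 23.8, 48.5, 17.6 and 16.2 CPM in the 48 hr replicates 1, 2, 3, 4, 6 and 7, with Elane at 0 in all 11 libraries. S100a8 was at most 0.417 CPM at 0 hr and between 4.68 and 17.9 CPM at 48 hr (edgeR adjusted p = 0.00101). Of 16 monocyte and macrophage markers 5 rose (leaving out 1 library at a time gave 3 to 6, past 1.5 times with 3 without 0 hr replicate 1, 3 without 0 hr replicate 2, 3 without 0 hr replicate 3, 3 without 0 hr replicate 4, 3 without 48 hr replicate 2 and 3 without 48 hr replicate 4), and the sum was 71.0 to 106 CPM at 0 hr and 284, 458, 80.8, 290.3, 58.6 and 86.2 CPM at 48 hr, high in replicates 1, 2 and 4. Itgam, an integrin of myeloid cells, was between 0.344 and 0.647 CPM and then at 12.8, 15.9, 4.48, 20.7, 1.62 and 4.91 CPM (log2 fold change 4.49, SE 0.69, edgeR adjusted p = 0.000598). Of 5 tested T and NK cell markers (15 listed) 2 rose, Gzma and Gzmb. The sum of all 15 was 1.80 to 3.701 CPM and then 3.00 to 7.51 CPM, with overlapping groups. Gzmb was at 0 in every 0 hr library, so the count filter partly sets this count as well. The calls of Gzma and Gzmb were lost in 7 and 5 fits that left out 1 library. Both were also lost in limma-voom (adjusted p 0.0850 to 0.119) and without library series 4 (edgeR adjusted p 0.0848 to 0.102). The part of leukocytes in the chemokine, cytokine, complement and protease changes was not tested.

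Of 14 fibroblast markers 2 rose (Lox and Dcn), and their sum did not overlap, at 429 to 823 CPM at 0 hr and 1057 to 1883 CPM at 48 hr. Dcn carried most of that sum. It was at 164 to 351 CPM at 0 hr and 678 to 1432 CPM at 48 hr, the sum of the other 13 markers overlapped (265 to 473 CPM and 356 to 543 CPM), and the median over the 14 markers was 0.02, 0.66, −0.10, 0.66, −0.83 and −0.05 in the 48 hr replicates 1, 2, 3, 4, 6 and 7 against the 0 hr mean. Of 26 cardiomyocyte markers 3 rose (Ankrd1, Myh7 and Nppb) and 1 fell (Actc1). Ankrd1, a stress-responsive protein of heart muscle that other cells can also express, was at 335, 134, 145, 99.0 and 133 CPM at 0 hr and 2384, 1995, 3182, 4440, 2554 and 4011 CPM at 48 hr. Every 48 hr library was above the 0 hr range (log2 fold change 4.04, SE 0.52, edgeR adjusted p = 0.000314). Cardiac actin (Actc1) was at 431, 736, 568, 561 and 1120 CPM at 0 hr and 144, 236, 148, 237, 111 and 151 CPM at 48 hr (log2 fold change −1.80, SE 0.34, edgeR adjusted p = 0.00270). The sarcomere gene Myh6 was between 745 and 1547 CPM and between 521 and 2457 CPM (log2 fold change −0.32, SE 0.25, edgeR adjusted p = 0.480). The part of these cells in the results was not tested.

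**Figure D4:**
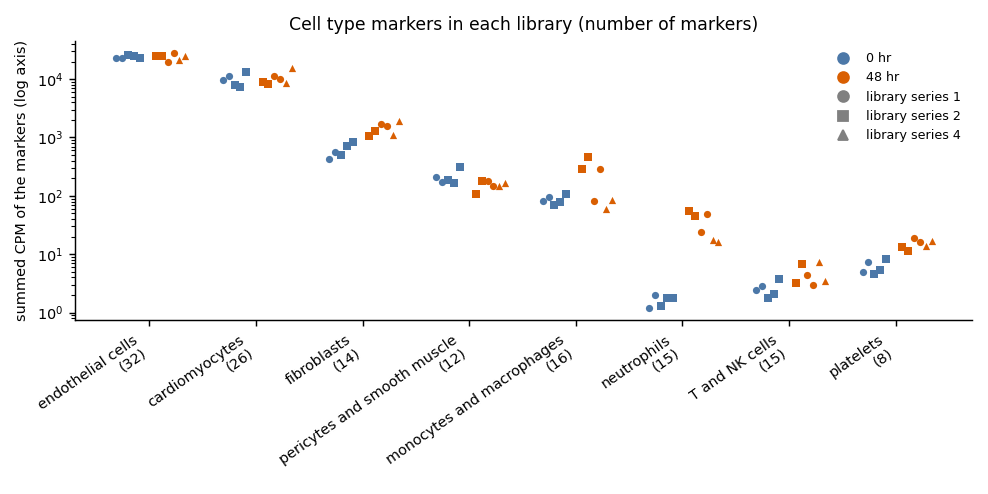
Summed CPM of each cell type's markers (number of markers in parentheses) in each library at 0 hr (blue) and 48 hr (orange), on a log axis, with symbols for library series. Neutrophil marker sums are 1.22 to 2.03 CPM at 0 hr and 16.2 to 55.4 CPM at 48 hr, while endothelial sums overlap at 22640 to 25880 CPM and 19590 to 27530 CPM.

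Further calls of genes named here ended under other fits. With replicate number as a further term (replicate block), 73 of the 118 called named genes lost their call. Among them were Ltbp4 (edgeR adjusted p = 0.0594), Has3 (edgeR adjusted p = 0.0734) and Itgb3 (edgeR adjusted p = 0.0505). Mcam and Nppb were each lost in 8, Dgat2 in 3 and Lox in 2 of the 11 fits that left out 1 library. With limma-voom the calls of Mt2, Mt1, Ch25h, Irf7, Samd9l, Irf8, Plaur, Cenpa, Cdc20, Cdkn1a, Pgf, Mcam, Dgat2, Pfkfb3, Nppb, Lox, Rnd1, Il6 and Socs3 ended (adjusted p 0.0516 to 0.442). Without library series 4 the calls of Mt2, Mt1, Fbln2, Ccnd2, Irf7, Lgals3bp, Samd9l, Irf8, H2-T23, H2-Q4, Jam3, Plaur, Cenpf, Cenpa, Cdc20, Cdkn1a, Pgf, Mcam, Ctnnb1, Dgat2, Pfkfb3, Nppb, Lox, Rnd1, Il6 and Socs3 ended (adjusted p 0.0723 to 0.287). With only the 2 times in the fit the calls of Mt2, Mt1, Ccnd2, Irf7, Samd9l, Irf8, Plaur, Cenpa, Cdkn1a, Mcam, Ctnnb1, Nppb, Lox and Socs3 ended (adjusted p 0.0515 to 0.209).

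The 6 libraries at 48 hr shared a direction but not a size of change. The median difference from the 0 hr mean over the 493 higher genes was 1.69, 1.58, 2.28, 2.13, 2.10 and 2.26 (log2 CPM) in replicates 1, 2, 3, 4, 6 and 7, and over the 178 lower genes −1.02, −0.72, −1.96, −1.25, −2.05 and −1.93. These genes were called on the same libraries, so the medians describe the spread and test nothing. Replicate 2 lay nearest the 0 hr level in 198 of the 493 and 106 of the 178 genes. Replicates 1 and 2 were the 48 hr libraries of library series 2 and replicates 6 and 7 those of library series 4, whereas replicates 3 and 4 shared library series 1 and still differed in Lcn2, Mt2 and Aqp7. What set the libraries apart was not tested.

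**Figure D5:**
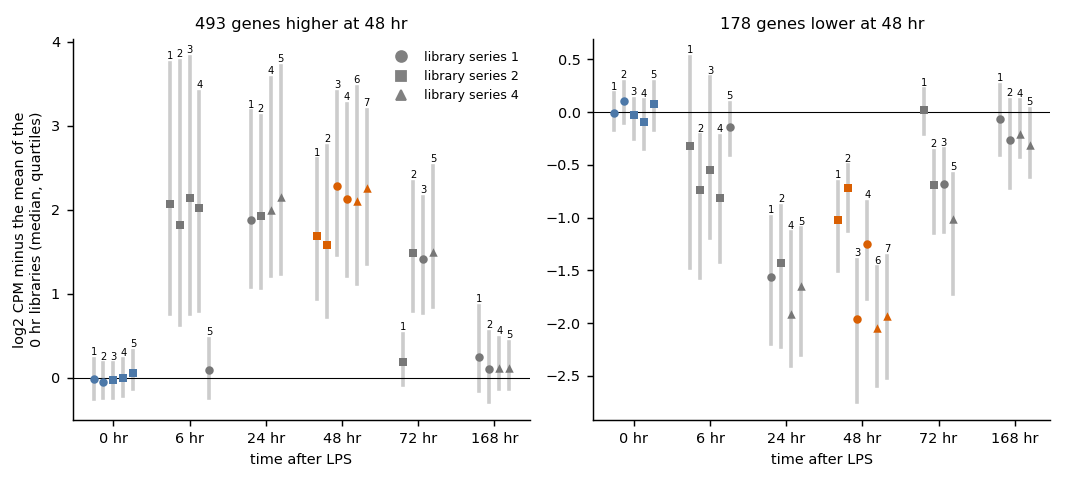
Median difference from the 0 hr mean in log2 CPM (y axis), with quartiles, over the genes higher and the genes lower at 48 hr, for each heart library by time (x axis). For the higher genes the 0 hr libraries lie at −0.0544 to 0.055, the 168 hr ones at 0.099 to 0.249 and the 48 hr ones at 1.58 to 2.28. The library labelled 6 hr replicate 5 (0.0924) and that labelled 72 hr replicate 1 (0.188) lie above the 0 hr range but far below the other libraries of their labels.

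Against 24 hr, 0 of 16024 genes were higher (0%) and 0 lower (0%) at 48 hr by edgeR, where the smallest adjusted p was 0.137, and 1280 higher and 1061 lower genes had an unadjusted p under 0.05. DESeq2 called 144 higher and 85 lower and limma-voom 0 and 0. Without the 2 libraries above edgeR called 322 and 344, and without 48 hr replicate 6 it called 52 and 73. Interferon-stimulated genes had a median log2 fold change of −0.94 and interferon gamma targets of −1.55 between these times. Cxcl9 was between 551 and 4952 CPM at 24 hr against between 111 and 869.9 CPM at 48 hr, a log2 fold change of −2.19 (SE 0.66, edgeR adjusted p = 0.194). Without the 2 libraries above it was −2.24 and past the threshold (edgeR adjusted p = 0.0150). Lcn2 was between 8842 and 23080 CPM at 24 hr, a log2 fold change of −0.83 (SE 0.89, edgeR adjusted p = 0.665).

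Against 72 hr, 0 genes were higher (0%) and 1 lower (0.00624%) at 48 hr by edgeR, with 1248 and 1013 at an unadjusted p under 0.05, 57 and 65 by DESeq2 and 0 and 0 by limma-voom. The gene was Acsl1, between 76.2 and 115 CPM at 72 hr against between 34.1 and 58.3 CPM at 48 hr, a log2 fold change of −1.06 (SE 0.17, edgeR adjusted p = 0.0341), and 0 genes were called when any 1 library at 48 hr was left out. Ltbp4 was between 127 and 1137 CPM at 72 hr, a log2 fold change of −0.999 (SE 0.52, edgeR adjusted p = 0.370), and Selp between 7.43 and 445 CPM, a log2 fold change of 1.26 (SE 0.83, edgeR adjusted p = 0.460). The 72 hr ranges and these fold changes include the library labelled 72 hr replicate 1. Without it and 6 hr replicate 5 the log2 fold change of Ltbp4 turned to 0.18 (edgeR adjusted p = 0.752), that of Selp was 0.79 (edgeR adjusted p = 0.406) and that of Acsl1 −1.11 (edgeR adjusted p = 0.0236).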

How the data were processed

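RNA bound to HA-tagged ribosomes of heart endothelium was sequenced. The authors deposited raw counts per gene for each sequencing run, made with STAR 2.4.2 and HTSeq 0.6.1 on mm10 per the submitters' processing notes; the annotation release and the strand setting are not given in the sources used here. Reads that HTSeq placed on no single gene were left out of library sizes. The 77 runs of the heart libraries were summed per library, 6 libraries with 2.13% to 2.44% of reads on genes were left out (the lowest kept had 43.69%), and 0 columns went unmapped. Replicates differed by more than counting noise (chi-square per degree of freedom at least 15.14).

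Genes passing edgeR's filterByExpr were fitted with edgeR 4.0.16 in R 4.3.3 (TMM, quasi-likelihood, 6 times plus library series), with Benjamini-Hochberg adjustment over 16024 genes and a threshold of 0.05. The 2 times compared with 48 hr besides 0 hr were 24 hr and 72 hr from the same fit. Levels are TMM-scaled CPM, and mean log2 CPM used a prior count of 2. The SE beside each log2 fold change is its size divided by the square root of the F statistic of the edgeR test. CPM is not per length, so levels of different genes were not compared. Alternatives used DESeq2 1.42.0, limma 3.58.1 and other scalings, filters, covariates and libraries, 23 fits in all. The edgeR fit was also run on simulated counts with the same spread for every gene and no library series effect. That setting is more even than these libraries, so it does not show how the fit behaves on them.

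Gene IDs took symbols and positions from GENCODE M21 on GRCm38 (52403 of 52550 matched), and promoters came from RefSeq on GRCm38.p6. Further named genes share exon bases with neighbours, so reads on the shared bases are uncertain. Among them are Ackr1 (with Cadm3) and Itgam (with Gm49368) on the same strand. Cebpd (Spidr), Irf7 (Phrf1), Stat3 (Stat5a), Ctnnb1 (Ulk4), Cxcl10 (Art3) and Rpl15 (Nkiras1) do so with a protein-coding gene on the opposite strand. Named genes were the 15 with the largest change in each direction (mean log2 CPM at least 4, called, no overlap, same direction in each library series), up to 3 per direction from each of 60 lists and a set of preset genes, of which some are left out of the text. Csf3, Il6, Socs3, Timp1, Tlr4, Cldn5, Hk2 and Stat3 were named after their values were seen. The groups, genes and lists were chosen with earlier results of these data known. Replicate numbers did not pair the libraries (correlation of deviations −0.11 to 0.0126 over 4 same-number pairs).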

Additional observations from a re-analysis of the deposited data

Results flagged for a closer look

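Of 170 groups of values (5 libraries at 0 hr or 6 at 48 hr), 12 held 1 library far from the rest of its group, with a gap to the nearest library over the group's range that passed Dixon's 95% critical value. Chance alone gives such a value in about 1 in 20 groups.

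At 0 hr, replicate 1 was highest for Ankrd1, at 335.3 CPM with the next library at 144.5 CPM, and for Cdkn1a, at 411.6 CPM with the next at 179.0 CPM. Replicate 4 was highest for Itgb3, at 19.85 CPM against 14.89 CPM, and for Sele, at 2.051 CPM against 1.258 CPM. Replicate 2 was lowest for Mt2, at 1.762 CPM against 5.073 CPM, and replicate 3 lowest for Cd14, at 2.139 CPM against 3.094 CPM.

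At 48 hr, replicate 2 was highest for the cell cycle genes Mki67, at 51.75 CPM with the next library at 17.76 CPM, and Cenpf, at 15.72 CPM against 6.169 CPM. Replicate 6 was highest for Il6, at 64.82 CPM against 22.54 CPM, and for Plaur, at 755.0 CPM against 286.3 CPM. Replicate 4 was highest for Ccl2, at 392.7 CPM against 175.8 CPM, and replicate 7 for the sarcomere gene Myh6, at 2457 CPM against 1135 CPM.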

How the results depend on the processing

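Counts of higher and lower genes at 48 hr against 0 hr (493 and 178) were 945 and 501 without the low-count filter, 962 and 391 with DESeq2, 213 and 99 with limma-voom, 1147 and 397 without library series as a covariate, 209 and 18 without library series 4, and 190 and 19 with the replicate block, although same-number libraries did not deviate together. Chosen after seeing the data, leaving out 6 hr replicate 5 and 72 hr replicate 1 gave 934 and 533, and fitting only the 2 times without covariate 775 and 305. Leaving out 1 library at a time gave 249 to 718 and 45 to 327. Against 24 hr (0 and 0) the counts were 373 and 263 without the filter, 144 and 85 with DESeq2, 2 and 1 with the replicate block, 322 and 344 without those 2 libraries, and 0 to 52 and 0 to 73 leaving out 1 at a time. Against 72 hr (0 and 1) they were 243 and 139 without the filter, 57 and 65 with DESeq2, 4 and 3 for only the 2 times, 4 and 2 for these without covariate, and 0 and 6 without those 2 libraries. The lower count was 0 with limma-voom, without covariate, with all heart libraries kept, with the replicate block, without library series 4 and with 1 library left out (0 to 0). RLE scaling, robust estimates and keeping all libraries moved the 0 hr counts by less than 1.5 times. The cause of these shifts was not tested. Of 118 called named genes, 36 passed in all 23 fits and 58 without each library in turn, and 0 reversed direction. Depth limits genes near 0 CPM, such as Csf3 and Cxcl13 at 0 hr.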

Other observations

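Further groups of genes showed smaller numbers of calls at 48 hr against 0 hr. Among all genes 3.08% rose and 1.11% fell. Of 15 glucocorticoid-responsive genes, 4 rose and 0 fell (median log2 fold change 0.65). Fkbp5, a chaperone partner of the glucocorticoid receptor, was at 119.9, 73.0, 96.5, 75.4 and 73.0 CPM at 0 hr and 186, 103, 874, 342, 844 and 999 CPM at 48 hr (log2 fold change 2.01, SE 0.53, edgeR adjusted p = 0.0317), with replicate 2 at 48 hr inside the 0 hr range, and was lost without 0 hr replicates 1, 2, 3, 4 or 5 or 48 hr replicate 3 (edgeR adjusted p 0.0511 to 0.115). Of 23 immediate early transcription factors, 3 rose and 0 fell. Junb was between 31.5 and 43.9 CPM at 0 hr and between 78.5 and 339.7 CPM at 48 hr (log2 fold change 2.01, SE 0.45, edgeR adjusted p = 0.0108), and it shares exon bases with Prdx2 on the opposite strand. Among 24 antioxidant genes 3 rose and 1 fell, with Gpx3, a secreted glutathione peroxidase, at 22.2, 26.0, 40.5, 41.3 and 41.7 CPM at 0 hr and 120.4, 129.7, 239, 150.4, 157 and 263 CPM at 48 hr (log2 fold change 2.41, SE 0.39, edgeR adjusted p = 0.00101).

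The core clock gene Arntl (Bmal1) was the 1 of 17 clock genes that rose, from 4.89, 5.64, 3.13, 5.95 and 2.01 CPM to 21.0, 15.9, 51.2, 26.0, 66.0 and 47.0 CPM (log2 fold change 2.62, SE 0.55, edgeR adjusted p = 0.00682), with an adjusted p over 0.05 in limma-voom (adjusted p = 0.0557). Hours of the day are not labelled. Of 75 cytosolic ribosomal protein genes, 2 fell (Rpl27a and Rpl15) and 0 rose, while the list's median log2 fold change was 0.33, so the calls and the median differ in sign. Rpl15 was between 47.0 and 56.2 CPM at 0 hr and between 12.2 and 47.4 CPM at 48 hr (log2 fold change −0.86, SE 0.24, edgeR adjusted p = 0.0440), lost without 0 hr replicates 1, 2, 4 or 5 or 48 hr replicates 3, 6 or 7 (edgeR adjusted p 0.0523 to 0.165). Ribosomal protein genes have many processed copies in the genome, so their counts are uncertain. Without library series 4 the calls of Fkbp5, Junb, Rpl15 and Rpl27a ended (edgeR adjusted p 0.0836 to 0.253). Limma-voom also ended those of Fkbp5, Rpl15 and Rpl27a (adjusted p 0.0724 to 0.157). Rpl15 and Rpl27a were further lost with only the 2 times in the fit (edgeR adjusted p 0.186 to 0.194) and with all heart libraries kept (edgeR adjusted p 0.0574 to 0.0701).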
